A study of Mus musculus with 4 samples.

Results

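The genes described here are 10 mouse genes grouped as methyltransferases of lysine 36 and lysine 79 of histone H3 and lysine 20 of histone H4, of which Smyd3 and Mecom are better known for other substrates or roles. They are Setd2, Nsd1, Ash1l, Smyd2, Smyd3, Kmt5a, Kmt5b, Kmt5c, Dot1l and Mecom. They were chosen by name, with earlier results of these data known. Each matched 1 of the 30049 Ensembl genes in the table of expression values. RNA was measured in 4 libraries of wild-type preimplantation embryos at the 2-cell stage with the strain background BDF1*BDF1 F2, 2 from control embryos and 2 from embryos treated with dimethyl sulfoxide (DMSO), a common solvent. Zygotes recovered 18 h after human chorionic gonadotropin (hCG) were grown for 24 h in KSOM, a culture medium for early embryos, either with 2% DMSO or with nothing added. Each group was made from pooled embryos, 50 for each group, and no label says whether replicates 1 and 2 came from separate matings or cultures, so the p-values measure the spread between these libraries, which may be technical. The 2 groups differ, as far as the labels say, in DMSO alone.

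Histone methyltransferases attach methyl groups to lysines, and the site and number of the groups decide which proteins bind there. Setd2 travels with elongating RNA polymerase II and places the trimethyl mark on lysine 36 of H3 along gene bodies, while Nsd1 and Ash1l place the dimethyl mark. Kmt5a places the first methyl group on lysine 20 of H4, on which Kmt5b and Kmt5c build the higher states, and Dot1l is the methyltransferase of lysine 79 of H3. Around the 2-cell stage the mouse embryo breaks down maternal RNA and starts its own transcription, and Setd2 from the oocyte is known to shape the methylation it inherits.

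Values are TPM, the abundance of a transcript corrected for its length and expressed relative to all other transcripts of its library. Levels of different genes are set side by side on this scale, within the limit given below for low values. TPM keeps no depth, so the depth of each library is unknown here and no counting error is given. The listed genes had sums of 768174 TPM (control replicate 1), 780527 TPM (control replicate 2), 772487 TPM (DMSO replicate 1) and 799166 TPM (DMSO replicate 2). A lower TPM of a gene can come from less of its RNA or from more of all other RNA, and fewer cells and less RNA per cell cannot be told apart in such pools. Differences were tested with limma, which fits a linear model to each gene and moderates its variance towards that of genes of similar level, on log2(TPM + 1) for the 12038 genes whose mean reached 1 TPM, with Benjamini-Hochberg adjustment over all of them. All 10 methyltransferase genes passed this filter, which was on the mean over the 4 libraries. Fold changes are on that scale and understate the change of genes with low values. An exact two-sided permutation test of a single value cannot go below p = 0.33 with 2 libraries against 2.

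Markers of the labelled stage were present. Of 5 genes known for their expression in the 2-cell embryo, all were tested, and their summed level was 649 and 444 TPM in the controls, compared with 1919 and 1386 TPM with DMSO, with Tcstv3 the most abundant. Of the 5, 4 had a log2 fold change above 0 and 1 below 0, and limma called 3 higher with DMSO, against 6.42% of all genes tested. The 6 oocyte genes, whose RNA the early embryo carries over, summed to 1075 and 691 TPM in the controls, compared with 2802 and 2164 TPM with DMSO. Most of this sum was Oosp1 in every library. Of the 6, 5 were tested, of which 4 had a log2 fold change above 0 and 1 below 0, and 2 were called higher. Nlrp5, the oocyte gene that was not tested, was at or below 0.142 TPM in every library. Polr2a, the largest subunit of RNA polymerase II, was at or below 0.86 TPM in every library although every cell uses it (both genes are singled out after their values were seen), so that a low value in this table is no sign that a gene was silent. The order of levels and the ratios between genes given below are those of the table and carry the same limit. Of 10 markers of cumulus and granulosa cells, which surround the oocyte, 9 were below 2 TPM in every library, Amh being at 0 throughout, and the other, Amhr2, was called lower. The list summed to 39.6 and 31.4 TPM in the controls, compared with 11.0 and 19.2 TPM with DMSO, most of it Amhr2 in every library. Of 4 sperm markers Tnp2 was at 0 in every library, and the list summed to 2.84 and 3.38 TPM in the controls, compared with 13.4 and 8.48 TPM with DMSO, most of it Prm2, which was called higher. Tnp1, at 0.281 and 0 TPM in the controls and 2.08 and 1.69 TPM with DMSO, passed the filter on the mean only through the DMSO libraries, so its call is not counted. These marker levels moved with the groups, and their part in the results on the methyltransferases was not tested.

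**Figure D1:**
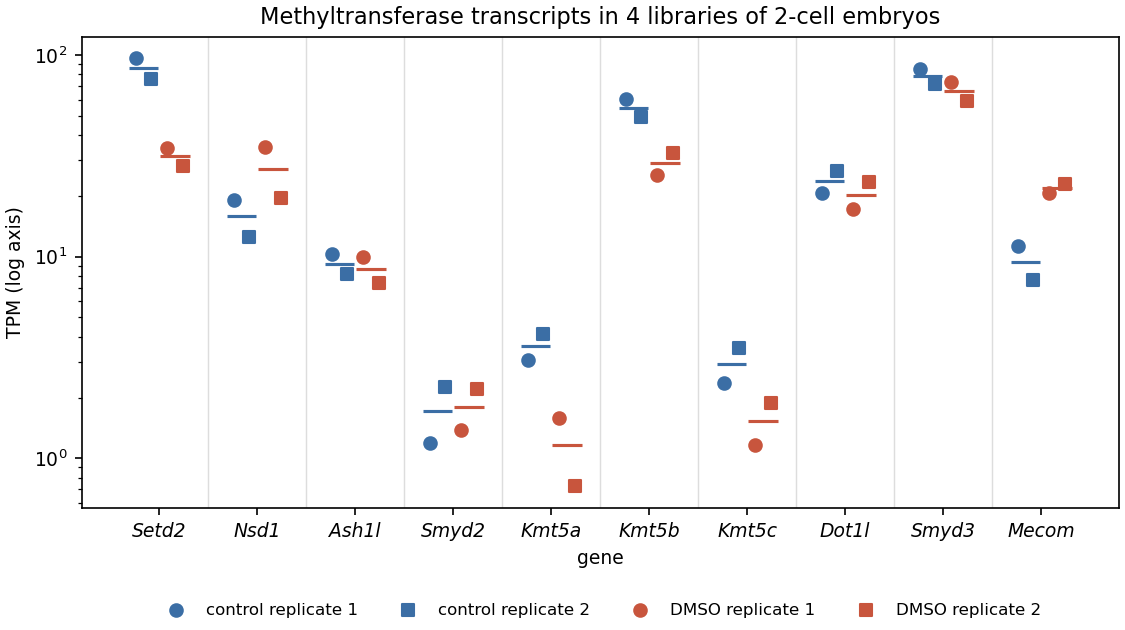
Level of each of the 10 genes in TPM on a log axis, with 1 point for each library (circles replicate 1, squares replicate 2, blue control, red DMSO) and a bar at each group's mean of 2 libraries. Setd2 lies at 96.3 and 75.7 TPM in the controls, compared with 34.5 and 28.3 TPM with DMSO, while the points of Smyd3, Dot1l, Ash1l and Smyd2 overlap between the groups.

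The 10 genes differed widely in level. In control embryos Setd2 had the highest mean, 86.0 ± 14.6 TPM (SD, n = 2), followed by Smyd3 with 78.6 ± 9.64 TPM, Kmt5b with 54.6 ± 7.78 TPM, Dot1l with 23.6 ± 4.26 TPM and Nsd1 with 15.8 ± 4.70 TPM (SD, n = 2 each). Mecom was at 9.44 and Ash1l at 9.23 TPM, Kmt5a was at 3.60, Kmt5c at 2.95 and Smyd2 at 1.72 TPM. The ranges of the 2 control libraries overlapped between Setd2 and Smyd3, between Mecom and Ash1l, and between Kmt5a and Kmt5c, and between no other neighbours in this order. In DMSO-treated embryos the order was Smyd3, Setd2, Kmt5b, Nsd1, Mecom, Dot1l, Ash1l, Smyd2, Kmt5c and Kmt5a. There Smyd3 stood apart at the top. Each gene from Setd2 to Mecom overlapped in range with the next in the order, as did Smyd2 and Kmt5c, and Kmt5c and Kmt5a, while Dot1l and Ash1l, and Ash1l and Smyd2, did not.

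Of the 10 genes, limma called 1 lower (Setd2) and 1 higher (Mecom) in DMSO-treated embryos at an adjusted p-value under 0.05. Among all 12038 genes tested, 14.1% were called lower and 6.42% higher, so 20.5% were called in either direction, and the 2 of 10 methyltransferases called are a share near this background. The median log2 fold change was -0.23 over the 10 genes and -0.09 over all genes tested. Of the 10 genes, 4 were lower in both DMSO libraries than in both controls (Setd2, Kmt5a, Kmt5b and Kmt5c) and 2 higher (Nsd1 and Mecom), against 38.7% and 31.1% of all genes tested. That is 6 genes without overlap between the groups, against 69.8% of all genes. An unadjusted p-value under 0.05 was reached by 4 of the 10, against 40.2%, and 7 of the 10 had a log2 fold change below 0, against 53.2%. The split of calls over all genes depended on scaling, with 31.3% of calls higher on the TPM values, 39.0% after median-ratio scaling and 49.0% after quantile normalization.

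**Figure D2:**
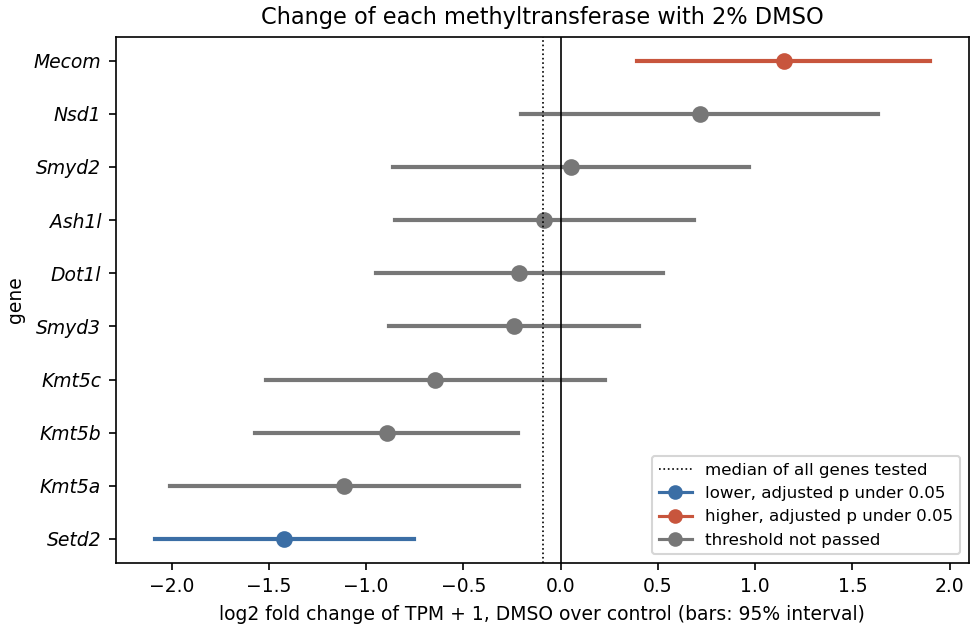
Log2 fold change of TPM + 1 (DMSO over control) of each of the 10 genes, with the 95% interval from limma as a bar; blue (lower) and red (higher) mark an adjusted p-value under 0.05, and the dotted line is the median of all genes tested. Setd2 at -1.42 and Mecom at 1.15 are coloured, and the intervals of the 3 Kmt5 genes all centre below 0.

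**Figure D3:**
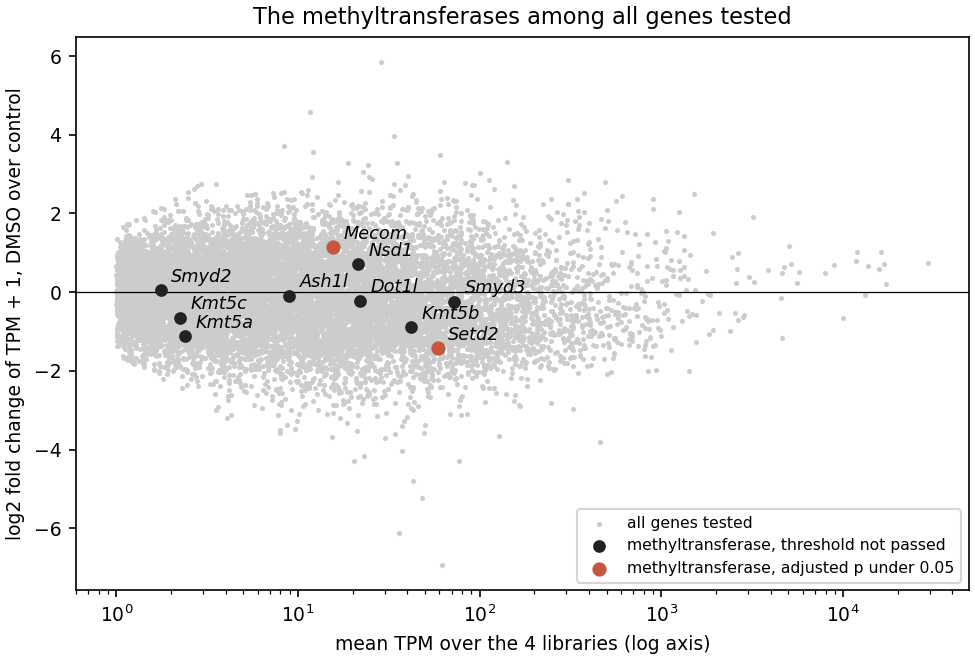
Log2 fold change of TPM + 1 (DMSO over control) against mean TPM over the 4 libraries (log axis), with the 12038 genes tested in grey, the 10 methyltransferases in black and those called at an adjusted p-value under 0.05 in red. Setd2 and Mecom lie within the cloud of all genes and not at its edge.

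Setd2 (ENSMUSG00000044791) spans chromosome 9 of GRCm38 from 110532597 to 110618633 on the plus strand in GENCODE M21. It was at 96.3 and 75.7 TPM in the controls, compared with 34.5 and 28.3 TPM with DMSO. Both DMSO values lay far below both control values, and the ratio of the control to the DMSO mean was 2.74. The log2 fold change was -1.42 (standard error 0.28, 95% interval from -2.09 to -0.76, limma adjusted p = 0.0249). Among the genes tested Setd2 ranked at the 88.7th and 86.7th percentile of level in the controls, compared with the 77.8th and 75.7th with DMSO. It was lower under each alternative run. The call was lost with no filter on low values (limma adjusted p = 0.102) and without any one library, where the log2 fold change lay between -1.59 and -1.25 and the limma adjusted p between 0.0517 and 0.16. Little of its sequence was ambiguous, as 0.633% of its 31-base words were found in another gene too.

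The promoters of Setd2 and Mecom are shown because these were the 2 genes that limma called. The windows run from 250 bases before to 50 bases after an annotated start and come from RefSeq on GRCm38.p6. Capitals mark matches, on either strand, to GGGCGG (the GC box of Sp and Klf factors), CCAAT (bound by NF-Y), TATAAA (the TATA box) and CACGTG (an E-box). The Setd2 window is chr9:110532347-110532646 on the plus strand, the upstream Mecom window chr3:30509710-30510009 and the inner Mecom window chr3:30013155-30013454, both on the minus strand.
Setd2: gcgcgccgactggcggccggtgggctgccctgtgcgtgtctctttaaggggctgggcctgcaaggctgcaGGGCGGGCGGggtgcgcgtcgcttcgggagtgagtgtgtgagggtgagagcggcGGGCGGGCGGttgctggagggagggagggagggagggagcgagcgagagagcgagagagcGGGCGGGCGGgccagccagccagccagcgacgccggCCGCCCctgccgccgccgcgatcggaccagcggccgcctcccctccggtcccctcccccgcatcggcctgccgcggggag
Mecom upstream: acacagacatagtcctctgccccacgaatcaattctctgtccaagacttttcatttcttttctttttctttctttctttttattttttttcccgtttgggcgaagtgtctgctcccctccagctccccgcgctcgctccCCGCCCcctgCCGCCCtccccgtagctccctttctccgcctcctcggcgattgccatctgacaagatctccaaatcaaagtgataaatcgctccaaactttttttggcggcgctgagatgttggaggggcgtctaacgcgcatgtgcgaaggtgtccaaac
Mecom inner: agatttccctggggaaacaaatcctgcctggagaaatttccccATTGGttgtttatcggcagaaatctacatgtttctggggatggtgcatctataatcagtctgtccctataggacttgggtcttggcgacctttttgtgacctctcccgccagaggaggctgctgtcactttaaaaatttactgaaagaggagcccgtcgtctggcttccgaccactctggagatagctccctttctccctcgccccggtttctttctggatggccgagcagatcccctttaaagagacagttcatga

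The Setd2 window has 77.3% G and C and 38 CpG dinucleotides and holds 7 matches to GGGCGG, of which 6 lie in 3 overlapping pairs, and none to the other 3 motifs. Mecom differs in makeup, with 52.0% G and C, 19 CpG and 2 matches to GGGCGG in the upstream window, and 49.7% G and C, 9 CpG and 1 match to CCAAT in the inner window. The median window of the 32851 in the table has 52.7% G and C and 7 CpG. RefSeq windows were found for 7 of the 10 genes, 11 windows in all. GGGCGG was found in 9 of the 11 windows, against 35.7% of all windows, and CCAAT in 5, against 37.4%. TATAAA and CACGTG were found in 0 of the 11, against 13.6% and 7.15% of all windows. Some genes have several windows, so the windows are not independent. No allowance was made for base makeup in these counts, and its part in them was not tested. The matches are letters in a window and not measured binding sites.

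Nsd1 (ENSMUSG00000021488, chromosome 13 from 55209782 to 55318325), the dimethyltransferase of lysine 36, was at 19.2 and 12.5 TPM in the controls, compared with 34.8 and 19.5 TPM with DMSO. The lower DMSO value was just above the higher control value, and the 2 DMSO libraries differed from each other more than the group means did. The log2 fold change of 0.72 (95% interval from -0.20 to 1.63, limma adjusted p = 0.204) did not pass the threshold, and it was 0.31 without DMSO replicate 1 and 1.12 without DMSO replicate 2. Ash1l (chromosome 3 from 88950622 to 89079375), which places the same mark, was at 10.3 and 8.18 TPM in the controls, compared with 9.94 and 7.42 TPM with DMSO. Its groups overlapped, with a log2 fold change of -0.08 (95% interval from -0.85 to 0.68, limma adjusted p = 0.856) that turned to 0.0035 after quantile normalization. Of the exon bases of Ash1l 2.37% overlap Dap3 on the other strand. Smyd2 (chromosome 1 from 189880492 to 189922363), which methylates lysine 36 and also proteins other than histones, was at 1.19 and 2.25 TPM in the controls, compared with 1.39 and 2.20 TPM with DMSO. The groups overlapped and the log2 fold change was 0.05 (95% interval from -0.86 to 0.97, limma adjusted p = 0.928), with the sign turned to -0.23 without control replicate 1. Of the 31-base words of Smyd2 26.8% also occur in the antisense gene Gm37422, the highest share of the 10 genes. Its values are uncertain, since the library kit does not mark strand. Gm37422 itself was not analysed here.

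The balance of Setd2 with Nsd1 and Ash1l was also read within each library, where it does not depend on scaling between libraries. The ratio of Setd2 to the sum of Nsd1 and Ash1l was 3.27 and 3.66 in the controls, compared with 0.772 and 1.05 with DMSO. The Setd2 transcript thus exceeded the sum of these 2 by more than 3 to 1 in both controls and was near 1 to 1 in both DMSO libraries. Against Nsd1 alone the ratio was 5.03 and 6.05 in the controls, compared with 0.993 and 1.45 with DMSO. The groups did not overlap for either ratio, and the exact two-sided permutation p was 0.333, the smallest that 2 libraries against 2 can give. Nsd2, Nsd3, Prdm9 and Smyd2, also enzymes of lysine 36, are not in these ratios, which do not describe the balance of all such enzymes. Nsd3 was at 26.05 and 20.96 TPM in the controls, compared with 16.3 and 15.6 TPM with DMSO. Nsd2 was at 8.17 and 5.46 TPM in the controls, compared with 6.87 and 6.09 TPM with DMSO. The ratios are of RNA, and neither the enzymes nor the marks were measured.

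Kmt5a (ENSMUSG00000049327, chromosome 5 from 124439930 to 124462308), which places the first methyl group on lysine 20 of H4 and is tied to the cell cycle, was at 3.09 and 4.11 TPM in the controls, compared with 1.59 and 0.727 TPM with DMSO. The groups did not overlap, and the ratio of the control to the DMSO mean was 3.11 at these low levels. The log2 fold change was -1.11 (standard error 0.37, 95% interval from -2.01 to -0.22, limma adjusted p = 0.0764). Kmt5b (ENSMUSG00000045098, chromosome 19 from 3767421 to 3818303), one of the enzymes that add further methyl groups, was at 60.1 and 49.1 TPM in the controls, compared with 25.5 and 32.5 TPM with DMSO. The control values were again all above the DMSO values, with a log2 fold change of -0.89 (standard error 0.28, 95% interval from -1.57 to -0.22, limma adjusted p = 0.0653). Its paralog Kmt5c (ENSMUSG00000059851, chromosome 7 from 4740115 to 4747514) was at 2.37 and 3.53 TPM in the controls, compared with 1.17 and 1.89 TPM with DMSO. That is a log2 fold change of -0.64 (95% interval from -1.51 to 0.23, limma adjusted p = 0.224).

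The 3 genes of lysine 20 thus all had lower values in both DMSO libraries, as had 38.7% of all genes tested, and none passed the threshold in the fit described. The log2 fold changes of all 3 stayed below 0 under each alternative that tested them. Their summed level was 65.6 and 56.8 TPM in the controls, compared with 28.3 and 35.1 TPM with DMSO, most of it Kmt5b in every library. Kmt5b exceeded Kmt5c 25.4-fold and 13.9-fold in the controls, compared with 21.9-fold and 17.2-fold with DMSO, and these ranges overlapped. Of the exon bases of Kmt5b 6.28% overlap the antisense gene Gm16066, which was not analysed here. A processed pseudogene, Gm8770, holds 2.18% of the 31-base words of Kmt5a and was listed at 0 in both controls, with 0.0895 and 0.0865 TPM with DMSO.

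Dot1l (ENSMUSG00000061589, chromosome 10 from 80755206 to 80795461), which unlike the SET domain enzymes belongs to another fold family, was at 20.5 and 26.6 TPM in the controls, compared with 17.2 and 23.4 TPM with DMSO. The groups overlapped, and replicate 2 was the higher library in both. The log2 fold change was -0.21 (95% interval from -0.95 to 0.52, limma adjusted p = 0.626), and it lay between -0.42 and -0.00037 when any one library was left out. No word of Dot1l or Kmt5c is shared with another gene.

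Smyd3 (ENSMUSG00000055067, chromosome 1 from 178951960 to 179518041), a relative of Smyd2 for which both histone and cytoplasmic substrates are described, was at 85.4 and 71.8 TPM in the controls, compared with 73.7 and 59.2 TPM with DMSO. The groups overlapped, with a log2 fold change of -0.24 (95% interval from -0.88 to 0.40, limma adjusted p = 0.522) that was 0.05 after quantile normalization and between -0.40 and -0.086 without any one library. Smyd3 lay between percentiles 86.1 and 88.1 of the genes tested in all 4 libraries.

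Mecom (ENSMUSG00000027684, chromosome 3 from 29951296 to 30548008, minus strand) encodes the zinc finger factor EVI1 and, from a start further upstream, a longer form with a PR domain, a relative of the SET domain. It was at 11.3 and 7.62 TPM in the controls, compared with 20.7 and 22.8 TPM with DMSO. Both DMSO values were well above both control values, and the DMSO mean was 2.31 times the control mean. The log2 fold change was 1.15 (standard error 0.31, 95% interval from 0.39 to 1.90, limma adjusted p = 0.0471). Mecom was higher under each alternative run, but its call was lost with a pseudocount of 0.1 (limma adjusted p = 0.0521), with no variance trend (0.0552), with no filter on low values (0.121) and without any one library (from 0.11 to 0.285). The table holds 1 value for the gene, so the long and short forms cannot be told apart.

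**Figure D4:**
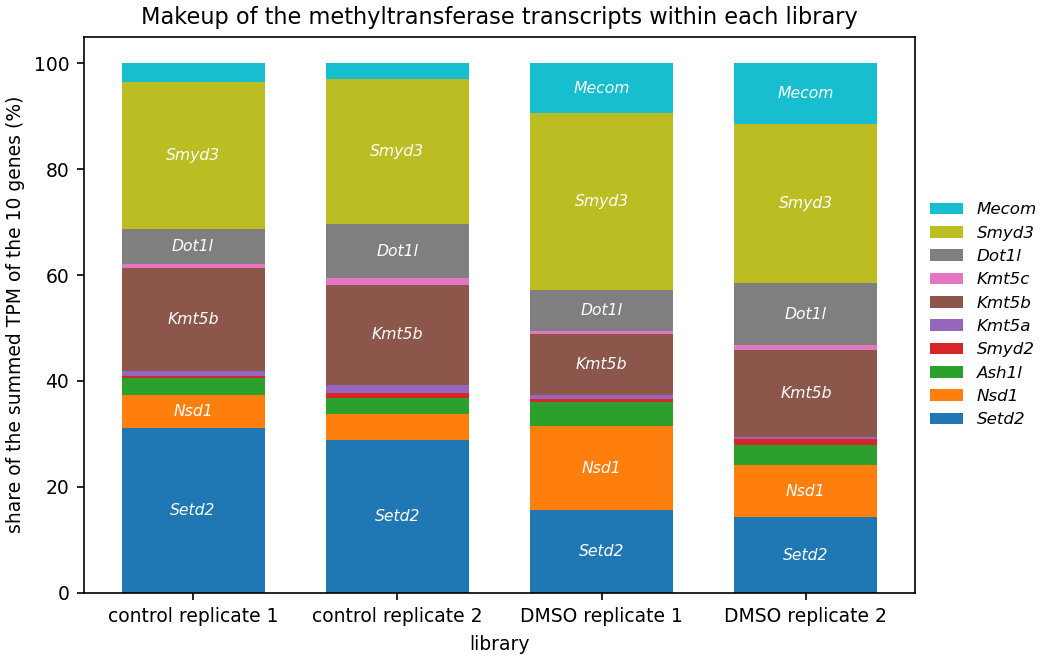
Share of each gene, in percent, in the summed TPM of the 10 methyltransferases, 1 stacked bar for each library. Setd2 takes 31.1% and 29.0% of the control bars and 15.7% and 14.3% of the DMSO bars, and the segments of Nsd1 and Mecom are wider in the DMSO bars.

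The 10 genes summed to 310 and 261 TPM in the controls, compared with 221 and 198 TPM with DMSO. The share of Setd2 in this sum was 31.1% and 29.0% in the controls, compared with 15.7% and 14.3% with DMSO, a difference of -15.05 percentage points. Kmt5b took 19.4% and 18.8% in the controls, compared with 11.6% and 16.4% with DMSO. Mecom went the other way, with 3.64% and 2.91% against 9.40% and 11.5%, and so did Nsd1, with 6.18% and 4.78% against 15.8% and 9.86%. The share of Smyd3 was 27.6% and 27.5% in the controls, compared with 33.4% and 29.9% with DMSO, and those of Dot1l, Smyd2 and Kmt5c overlapped between the groups. The shares within a library add up to the whole, so a lower share of one gene raises the others. For each share without overlap the exact two-sided permutation p was 0.333.

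Setd2, Nsd1, Ash1l and Smyd3 were higher in replicate 1 than in replicate 2 in both groups, and Smyd2, Kmt5c and Dot1l were lower in replicate 1 in both. These 7 of the 10 genes compare with 64.5% of all genes tested whose replicates differed the same way in both groups. For Ash1l, Smyd2, Dot1l and Smyd3 the replicates of both groups differed by more than the group means did.

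Genes that act with or against these enzymes were taken from 12 lists of 80 genes, of which 79 were found and 64 tested. limma called 8 of the 64 lower and 0 higher, against 14.1% and 6.42% of all genes tested. Of the 64 genes 43 had a log2 fold change below 0 and 21 above 0, where 53.2% of all genes tested were below 0, the share against which the counts below 0 of single lists should be read. The median log2 fold change of the 64 was -0.30, against -0.09 over all genes tested. Sharing of sequence was not analysed for these genes.

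Of 14 elongation factors and subunits that accompany RNA polymerase II, the partner of Setd2, 13 were tested. Of these, 11 had a log2 fold change below 0 and 3 were called lower. Supt5, a subunit of the elongation factor DSIF, fell from 14.6 ± 2.41 to 1.19 ± 0.551 TPM (SD, n = 2), with a change of -2.84 on the log2 scale (limma adjusted p = 0.0181). Supt6, which binds the polymerase and histones, fell from 26.4 ± 1.06 to 11.3 ± 1.21 TPM (SD, n = 2), and Cdc73, a subunit of the PAF1 complex, from 17.5 ± 1.35 to 6.77 ± 1.31 TPM (SD, n = 2). On the log2 scale Supt6 changed by -1.16 (limma adjusted p = 0.036) and Cdc73 by -1.26 (limma adjusted p = 0.0366). The most abundant gene of the list, Paf1, was at 335 and 259 TPM in the controls, compared with 287 and 253 TPM with DMSO, so the groups overlapped.

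Of 7 demethylases of lysine 36, 6 were tested and 1 called. Riox1, a nucleolar oxygenase, fell from 43.1 ± 3.33 to 9.69 ± 6.19 TPM (SD, n = 2), with a change of -2.17 on the log2 scale (limma adjusted p = 0.0265) that was -2.80 without DMSO replicate 2 and -1.55 without DMSO replicate 1. Of 13 proteins that bind the methylated lysine, 8 had a log2 fold change below 0 and 1 was called. Mtf2, a partner of Polycomb repressive complex 2, fell from 225 ± 15.8 to 113 ± 21.3 TPM (SD, n = 2), with a change of -0.997 on the log2 scale (limma adjusted p = 0.0429), and this call was lost after either scaling and with no variance trend. Of the 3 other enzymes of lysine 36 none was called, and the most abundant, Nsd3, was at 26.05 and 20.96 TPM in the controls, compared with 16.3 and 15.6 TPM with DMSO (log2 fold change -0.52, limma adjusted p = 0.207).

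Of 7 genes for the turnover of Kmt5a, which the CRL4 and SCF ubiquitin ligases mark for degradation, 5 had a log2 fold change above 0. Of the 7, 1 was called. Skp2, the substrate receptor of SCF, fell from 49.6 ± 2.61 to 22.4 ± 0.391 TPM (SD, n = 2), with a change of -1.11 on the log2 scale (limma adjusted p = 0.0336), a call lost after quantile normalization, as was that of Supt6. Of 7 readers of lysine 20 of H4, 4 were tested and none was called. Of the 4, 3 were lower in both DMSO libraries than in both controls, as were 38.7% of all genes tested. The other 1, Orc1, was higher in both, as were 31.1% of all genes tested. Orc1, a subunit of the origin recognition complex, was the most abundant, at 59.3 and 71.6 TPM in the controls, compared with 75.2 and 74.7 TPM with DMSO. Of its 2 demethylases Phf8 was at 28.7 and 23.0 TPM in the controls, compared with 23.9 and 23.7 TPM with DMSO, and Rsbn1 was listed at 0 in every library.

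Of 4 partners of Dot1l, 3 were tested and none was called. Mllt3 (AF9) was at 55.1 and 25.0 TPM in the controls, compared with 171.9 and 64.4 TPM with DMSO. The groups did not overlap but the replicates of each differed more than 2-fold, and the log2 fold change of 1.48 had a limma adjusted p of 0.0961. Without DMSO replicate 2 it was 2.18 and passed the threshold (limma adjusted p = 0.0476), while it was 2.03 without control replicate 1, 0.92 without control replicate 2 and 0.78 without DMSO replicate 1, and did not pass in these. Ubiquitin on histone H2B stimulates Dot1l, and of 5 genes for it 4 were tested. Ube2b, a ubiquitin-conjugating enzyme, fell from 96.3 ± 24.8 to 41.8 ± 8.05 TPM (SD, n = 2), with a change of -1.17 on the log2 scale (limma adjusted p = 0.0421), a call lost with a pseudocount of 0.1, with no variance trend and after either scaling.

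Among the relatives of Smyd2 and Smyd3, Smyd5 was called and 2 of 3 genes were tested. It fell from 54.7 ± 0.279 to 10.5 ± 4.93 TPM (SD, n = 2), with a change of -2.34 on the log2 scale (limma adjusted p = 0.0188). Of 13 other PRDM genes, the family of Mecom, 6 were tested and none was called, with 4 log2 fold changes below 0 and 2 above 0. Prdm2, the most abundant, was at 16.7 and 12.8 TPM in the controls, compared with 18.5 and 13.8 TPM with DMSO. Prdm6 was at 2.40 and 1.53 TPM in the controls, compared with 7.11 and 4.51 TPM with DMSO. Its log2 fold change was 1.19 (limma adjusted p = 0.0638). The nearest relative of Mecom, Prdm16, was at or below 0.456 TPM in every library (Prdm16, Prdm6, Paf1 and Rsbn1 were singled out after their values were seen). Of the corepressors of Mecom, Ctbp2 was at 19.4 and 10.3 TPM in the controls, compared with 24.07 and 15.003 TPM with DMSO, and neither of the 2 was called. None of the 8 calls held with no filter on low values or without control replicate 1, control replicate 2 or DMSO replicate 1, settings in which limma called 0 of all genes, and Supt5, Riox1 and Smyd5 were called without DMSO replicate 2.

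**Figure D5:**
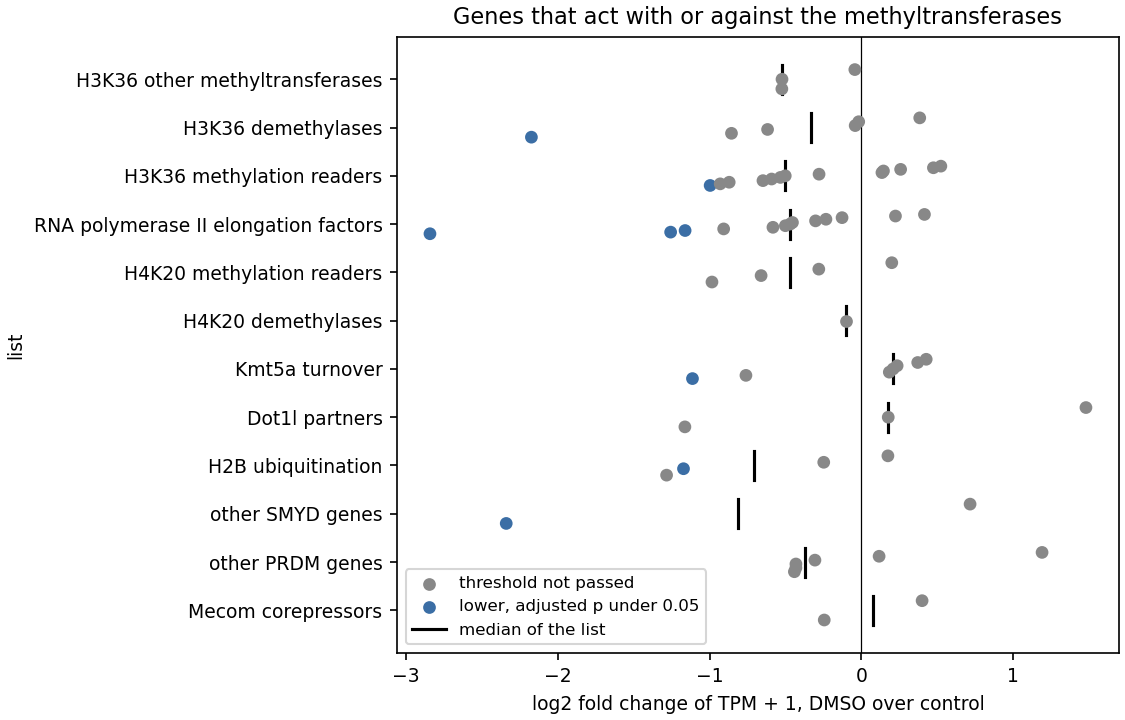
Log2 fold change of TPM + 1 (DMSO over control) of the 64 tested genes of the 12 lists, 1 point for each gene, with blue points called lower by limma and black bars at the median of each list. The 8 blue points lie between -2.84 and -0.997, and no gene is called higher.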

How the data were processed

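RNA of 2-cell embryos was measured in 4 libraries made with a SMARTer low-input kit. Reads of 50 bases are described both as single-end and as paired-end. The authors pseudomapped them to Ensembl transcripts of GRCm38 (mm10) using kallisto, summed TPM per gene using tximport and deposited TPM for 30049 genes. The kallisto version is not given in the sources used here, and the submitters' processing notes also name STAR, SAMtools and bedtools. The study's own test used estimated counts, and the TPM table holds none, so limma 3.58.1 in R 4.3.3 was run on log2(TPM + 1) (eBayes with trend, mean of at least 1 TPM, Benjamini-Hochberg threshold 0.05). The steps were tested on simulated data, in which the changes put in were larger than that of any methyltransferase described here. Changes of the size reported for these genes were not simulated. All 4 columns of values were used, grouped by the sample labels.

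Names and coordinates came from GENCODE M21 (GRCm38). Shared sequence was measured as 31-base words found, on either strand, in transcripts of other genes. Kallisto splits such reads by an estimate, and the authors ran it with default settings and named no strand option. Promoter windows came from RefSeq (GRCm38.p6). Summaries were made in Python 3.11.15 (pandas 2.3.3) and plots with matplotlib 3.10.9.

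The members and lists were chosen with earlier results of these data known. All 10 members are named, with the called genes of each list (at most the 4 largest changes), or the most abundant gene where none was called, and exceptions are marked. Alternatives were a pseudocount of 0.1, other filters on low values, scaling by median ratios or by quantiles, no variance trend, the replicate number as a block, leaving out each library in turn (the lone library of a group being assumed to vary like the other group), and a sum without the most abundant member.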

Additional observations from a re-analysis of the deposited data

How the results depend on the processing

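The 11 alternatives kept the log2 fold changes of Setd2, Kmt5a, Kmt5b and Kmt5c below 0 wherever these genes were tested. Those of Nsd1 and Mecom stayed above 0. With no filter on low values, limma called 0 methyltransferases lower, 0 higher, 0 list genes lower and 0 of all 22257 genes, although 5368 had an unadjusted p-value under 0.05. A mean of at least 5 TPM gave 2 methyltransferases lower (Setd2, and Kmt5b with limma adjusted p = 0.0486), where 22.5% of all genes tested were called lower, against 14.1%. A pseudocount of 0.1 and eBayes without a trend each gave 0 methyltransferases higher, where 605 and 629 of all 12038 genes tested were called higher. The log2 fold change of Mecom was 1.22 and 1.15 in these settings. Quantile normalization gave 4 list genes lower, where 9.31% of all genes tested were called lower, against 14.1%. It turned Ash1l to 0.0035 and Smyd3 to 0.048. The cause was not tested.

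The labels do not say what a replicate number shares. As a check of pairing, each library was set against its group mean, and over genes, which are not independent, Pearson's r between the replicates numbered alike was 0.354. With the replicate block, limma called 3 methyltransferases lower (Setd2, Kmt5a with adjusted p = 0.044 and Kmt5b with 0.0262), against 1 without it. It called 2 higher (Mecom, and Nsd1 with limma adjusted p = 0.0426), against 1. Of the list genes, 17 were called lower, against 8, and 2 higher (Mllt3 with limma adjusted p = 0.00381 and Prdm6 with 0.0171), against 0. Of all genes tested, 5132 (42.6%) were called with the block, against 2470. By direction, 24.8% of all genes tested were called lower and 17.9% higher with the block.

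Leaving out each library in turn gave from 0 to 0 methyltransferases lower and from 0 to 0 higher, from 0 to 3 list genes lower, from 0 to 1 higher (Mllt3), and from 0 to 1883 of all genes. The 0 came without control replicate 1, control replicate 2 or DMSO replicate 1, with 3745, 2602 and 3078 unadjusted p-values under 0.05. The log2 fold change of Ash1l ranged from -0.273 to 0.104, being above 0 without control replicate 1 (0.0649) or DMSO replicate 2, and that of Smyd2 from -0.233 to 0.335, being below 0 without the same libraries (-0.233 and -0.162). The difference of the Setd2 share lay between -16.1 and -14.0 percentage points, and was -19.5 when Smyd3 was left out of the sum. That of the Dot1l share, 1.39, ranged from -0.618 without DMSO replicate 2 to 3.41 without DMSO replicate 1, and was -0.373 without control replicate 1. TPM keeps no depth, so what depth limits is unknown here.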
